A study of Mus musculus with 12 samples.

Results

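Gene expression in the cerebellum was compared between all 6 SCA1 and all 6 WT mice of the series, which are its 12 samples, with physical activity as a block. The SCA1 mice (genotype Het in the labels) carried the Atxn1 154Q/2Q knock-in allele, which places an expanded CAG repeat in the mouse's own Atxn1 gene, so that every cell that uses Atxn1 can express it. The WT mice (genotype Wt) were littermates on C57BL/6J, and males and females were used. In each genotype, 3 mice were sedentary and 3 had a running wheel for 12 weeks, from 4 to 16 weeks of age. Exercise mice were housed alone and sedentary mice in groups, so housing and wheel running cannot be told apart, but both genotypes had the same number of mice in each activity group. The question was which genotype differences are shared by sedentary and exercise mice. Each library is 1 mouse, named by its number in the labels, and p-values measure the spread between these mice.

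SCA1 is an inherited ataxia in which a long polyglutamine tract in ataxin-1 damages neurons, most visibly the Purkinje cells, the only output neurons of the cerebellar cortex. Ataxin-1 works in the nucleus in a complex with Capicua, a repressor of transcription. Purkinje cells depend on metabotropic glutamate signalling through mGluR1, calcium release from internal stores and a dense set of calcium-binding proteins, and many of their marker genes belong to these systems.

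The authors counted between 20556802 and 32127508 read pairs per library on the reverse strand of annotated genes. Libraries of SCA1 sedentary mouse 16 and SCA1 exercise mouse 55 stood apart from the rest. Read pairs that mapped to several places made up 6.38% and 6.33% of them and 2.08% to 3.46% of the other 10. The summed level of 18 brainstem marker genes was 90.1 and 76.0 CPM (counts on a gene per 1e6 counts of the library) in these libraries and 0.526 to 6.33 CPM in the other 10, and that of 18 oligodendrocyte lineage markers was 7845 and 6231 CPM against at most 4726 CPM. Both are SCA1 libraries, so values without both are given beside some of the results. Genes of chromosome Y were expressed in 5 of 6 WT and 3 of 6 SCA1 libraries. Purkinje cell markers, which define cerebellar cortex, summed to 7229 CPM or more in every library.

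Atxn1 itself (chr13:45703231-46118484 on GRCm39) ranged from 148 to 169.8 CPM in WT mice with a median of 161, and from 147 to 193 CPM in SCA1 mice with a median of 173. The ranges overlapped, and the log2FC of SCA1 against WT was 0.12 ± 0.08 (SE; adjusted p = 0.612, edgeR), and 0.21 without mice 16 and 55 (adjusted p = 0.190). Both alleles add to the count of the gene, so this level does not check the genotype labels. Capicua (Cic) overlapped as well, at 267 to 321 CPM in WT and 289.97 to 407 CPM in SCA1 mice (log2FC 0.08 ± 0.09, adjusted p = 0.803, edgeR), with a log2FC of 0.14 without both mice.

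With the 12 mice together, 28 of 20341 genes tested passed a Benjamini-Hochberg adjusted p of 0.05 in edgeR's quasi-likelihood test, which is 0.138% of the genes. Of these, 19 were lower (0.0934%) and 9 higher (0.0442%) in SCA1 mice, and 25 had an absolute log2FC over 0.5 (0.123%), the limit used for a DEG, 18 of them lower (0.0885%). The lower genes included the Purkinje cell marker Pcp4, the calcium-sensing protein Kcnip4, the carbonic anhydrase Car9 and the centrosomal genes Cep72 and Cep76. The higher genes included Lrp1b, Sdk1, Nrg3, Csmd3 and Kcnb2. An unadjusted p under 0.05 was found for 2051 genes, or 10.1%, with 1162 higher (5.71%) and 889 lower (4.37%).

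For 24 of the 28 genes, the 6 SCA1 values lay all on one side of the 6 WT values, which held for 1.17% of all genes tested (0.354% all above and 0.816% all below). The exceptions were Csmd3, Slc8a3, Fam163b and Igfbp5. Within sedentary mice and again within exercise mice, none of the 28 overlapped, against 2.01% of all genes. The exact permutation test of each gene, two-sided and with genotype shuffled within each activity group, gave p = 0.005 for all 28, which is the smallest p its 400 arrangements allow. The genes were chosen by their p over the same mice and do not overlap within either activity group, so this value follows from the choice and adds no support. The number of calls depended on single mice. Without SCA1 mouse 16 there were 47 calls, and without SCA1 mouse 55 there were 93. Without both of them there were 203 (0.991% of 20494 genes), 70 higher (0.342%) and 133 lower (0.649%), which included all 28. Leaving out any of the other 10 mice left between 0 and 18 calls. There were 0 calls without WT mouse 117, 197 or 201 or SCA1 mouse 122 or 198, although 1393 to 2626 genes then had an unadjusted p under 0.05 in edgeR. Without WT mouse 116, 121 or 192 there were 5, 2 and 1 calls, and without SCA1 mouse 194 or 195 there were 14 and 18. The 28 genes kept their direction in each of 26 alternative fits, and each passed the threshold in 11 (Slc8a3) to 20 (Pcp4) of them. All these fits use mice on which the genes were chosen, so the kept direction follows largely from the choice and adds no support. DESeq2, the test of the study's methods, called 266 genes (1.31%), 103 higher (0.506%) and 163 lower (0.801%), all 28 among them.

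**Figure D1:**
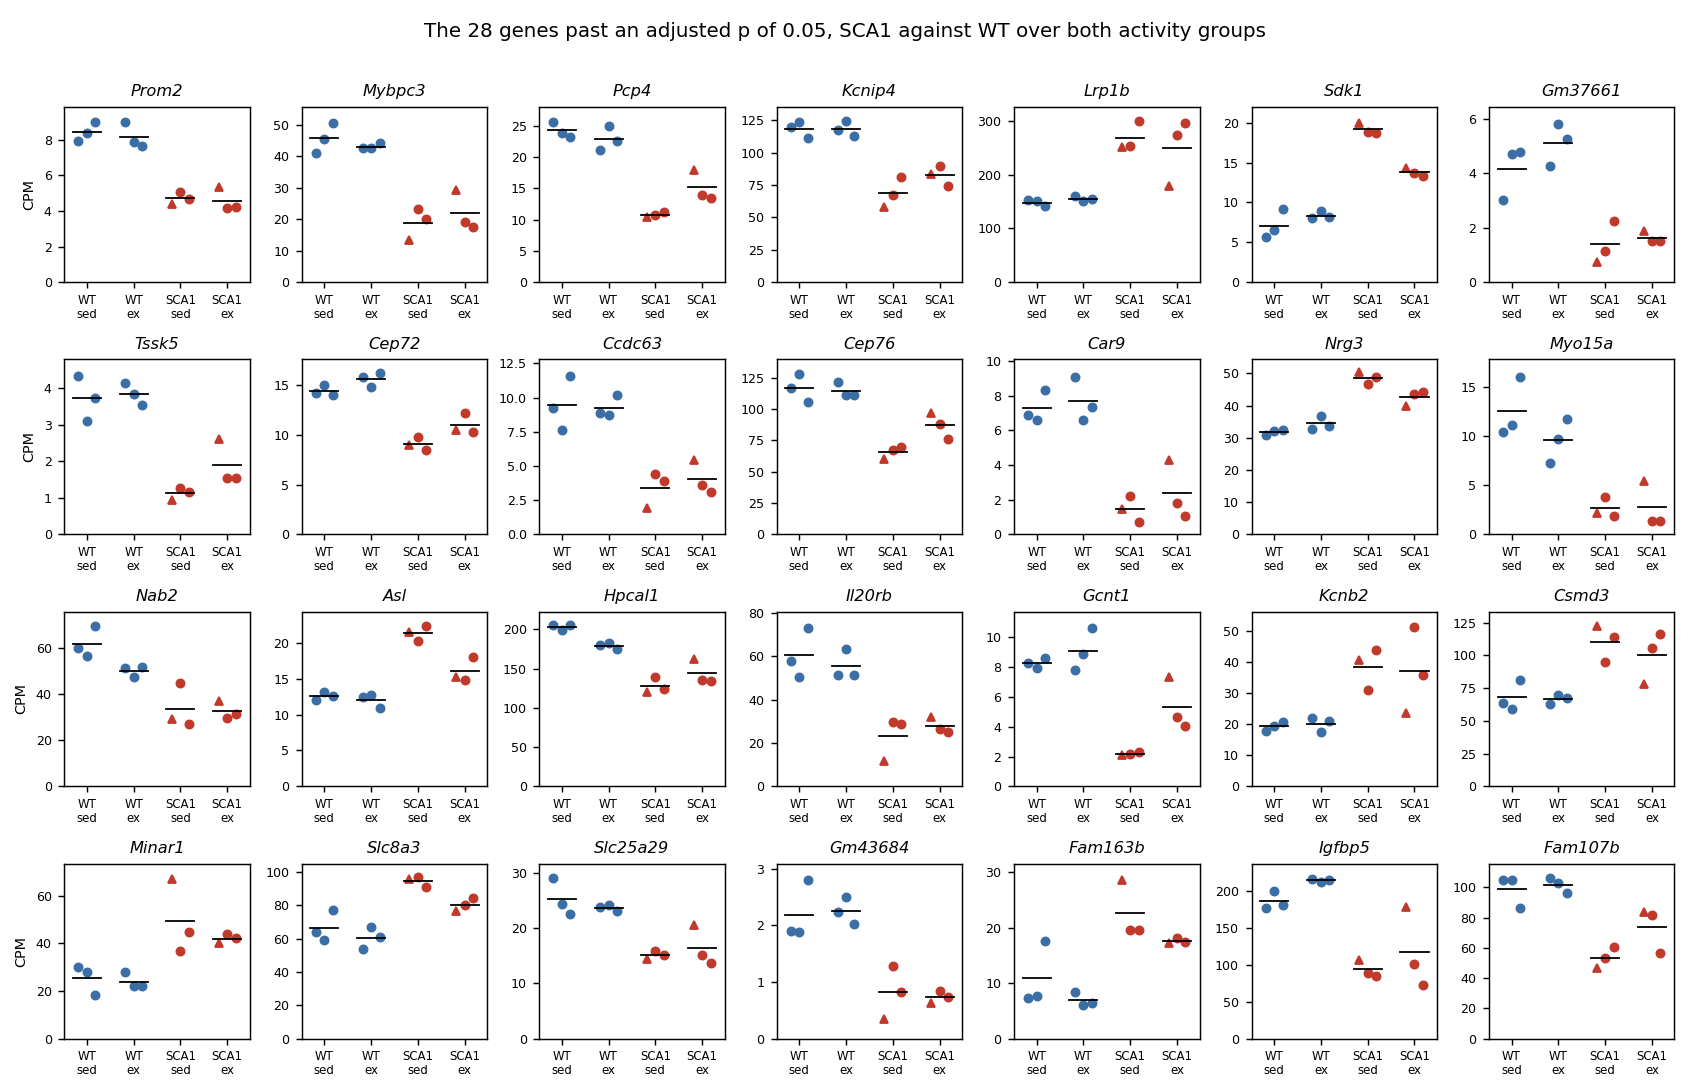
CPM of each of the 28 genes past an adjusted p of 0.05 (vertical axes start at 0) in the 3 mice of each group, WT in blue and SCA1 in red, with sedentary (sed) and exercise (ex) mice apart. Bars are group means and triangles mark mice 16 and 55. Within each activity group the red points lie all above or all below the blue ones, and Sdk1 and Gcnt1 lie farther from WT in sedentary than in exercise SCA1 mice.

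The lower genes included 3 calcium-binding or calmodulin-binding proteins of neurons. Pcp4 (chr16:96268806-96326997), a small calmodulin regulator abundant in Purkinje cells, had 21.1, 23.6 and 25.7 CPM as the lowest, median and highest value in WT mice and 10.4, 12.4 and 18.02 CPM in SCA1 mice. All SCA1 mice lay below all WT mice, with exercise mouse 55 the highest of them. Its log2FC was −0.88 ± 0.12 (SE; adjusted p = 0.0213, edgeR). In bulk tissue, fewer cells of a type and less RNA per cell cannot be told apart.

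Kcnip4 (chr5:48546844-49682249), a calcium-sensing partner of Kv4 potassium channels, had 111, 119 and 124 CPM in WT and 58.0, 77.6 and 89.6 CPM in SCA1 mice. The groups were separate, and the log2FC was −0.65 ± 0.09 (adjusted p = 0.0213, edgeR). GENCODE lists 24 further genes inside Kcnip4 on the same strand, most of them predicted genes without a known product. All 24 were tested and all were lower in SCA1 mice at an unadjusted p under 0.05, where 4.37% of all genes were. None passed the adjusted threshold. Their log2FC ranged from −1.10 to −0.71 with a median of −0.94. Since they share one locus and strand, they are not independent of each other or of Kcnip4. The 1 gene tested on the opposite strand of Kcnip4 had a log2FC of 0.13.

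Hpcal1 (chr12:17739796-17841964), a neuronal calcium sensor, had 175, 191 and 206 CPM in WT and 119.7, 135 and 162 CPM in SCA1 mice, with no overlap and a log2FC of −0.49 ± 0.08 (adjusted p = 0.0374, edgeR). Among 26 neuronal calcium-binding proteins tested, these 3 fell and none rose (0.0934% and 0.0442% of all genes), and 7 were lower and 2 higher at an unadjusted p (4.37% and 5.71% of all genes). The median of the list was 0.0049 against 0.01 over all genes, and −0.18 without mice 16 and 55. At its other end stood Necab2, a calcium-binding protein linked to metabotropic receptors, at 1.25, which did not pass and turned to −1.24 without both mice.

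Slc8a3, a sodium and calcium exchanger of the plasma membrane, went the other way. It had 53.8, 62.5 and 76.9 CPM in WT and 76.4, 87.7 and 96.96 CPM in SCA1 mice, so that the lowest SCA1 mouse lay just below the highest WT mouse. The log2FC was 0.45 ± 0.08 (adjusted p = 0.0399, edgeR).

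Purkinje cell markers as a list were low beyond Pcp4. Of 23 markers, 22 were lower in SCA1 mice, where 47.7% of all genes were, and 20 had an unadjusted p under 0.05 (4.37% of all genes). Only Pcp4 passed the adjusted threshold. The median log2FC was −0.37, against 0.01 over all genes. The markers share cells and move together, so the count is not one of independent genes. This list, like the others here, was chosen with earlier results of these data known. Its shares are therefore a description and no independent support. Summed, they reached 11627 to 12609 CPM in WT mice and 7229 to 11539 CPM in SCA1 mice, which did not overlap, with mouse 55 the highest of the SCA1 mice.

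Calb1 (chr4:15881155-15908085), calbindin, the calcium buffer used to stain Purkinje cells, had 543, 571 and 669 CPM in WT and 315, 418 and 491 CPM in SCA1 mice. Every SCA1 mouse lay below every WT mouse, and the log2FC was −0.54 ± 0.11, but the adjusted p was 0.0870 with edgeR. It passed in 5 of the 26 alternatives, with adjusted p from 0.00102 (DESeq2, the study's test) to 0.283. The study reports lower calbindin expression in SCA1 mice by qPCR in both activity groups, and by RNA sequencing in sedentary mice. Gng13, a G protein gamma subunit, had the lowest value of the markers that did not pass, at −0.81 ± 0.15 (adjusted p = 0.0703, edgeR). Foxp2, a transcription factor, was the 1 marker above 0, at 0.04, and at −0.08 without mice 16 and 55.

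**Figure D2:**
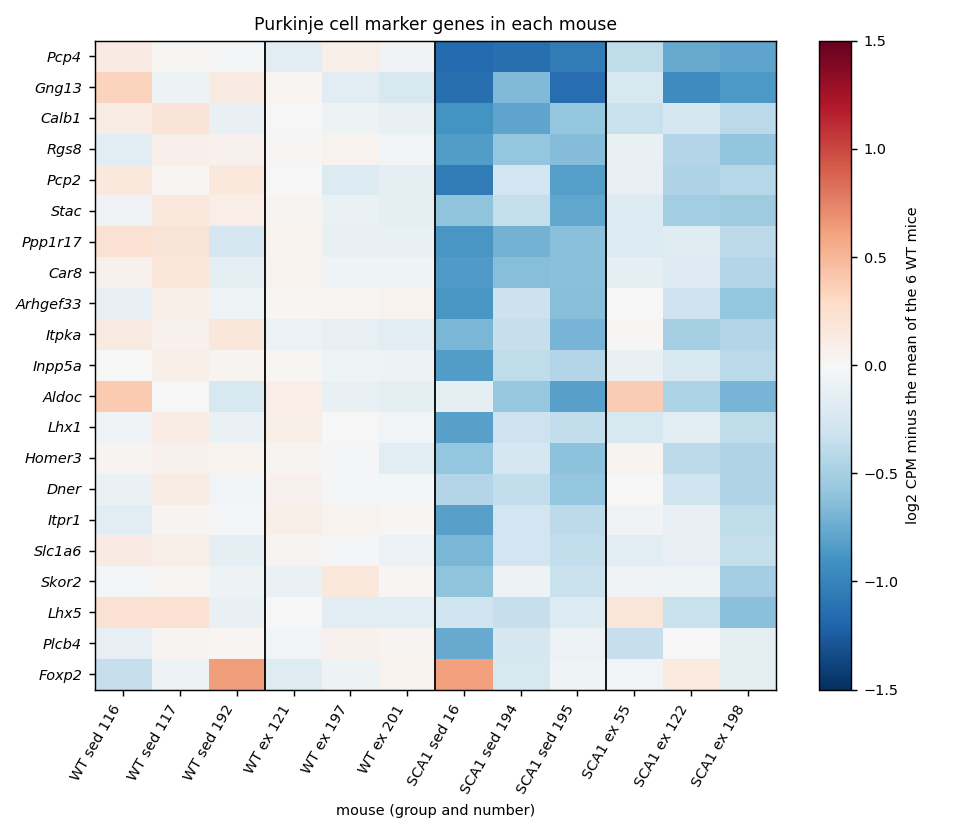
log2 CPM of 21 of the 23 Purkinje cell markers (rows) in each of the 12 mice (columns), as the difference from the mean of the 6 WT mice, red for higher and blue for lower. The 6 SCA1 columns are mostly blue, with medians over the 23 from −0.82 in sedentary mouse 16 to −0.11 in exercise mouse 55.

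Per mouse, the median distance of the 23 markers from the WT mean was −0.82, −0.34 and −0.58 on the log2 scale in SCA1 sedentary mice 16, 194 and 195. It was −0.11, −0.27 and −0.44 in SCA1 exercise mice 55, 122 and 198. Each SCA1 mouse had 18 to 23 of the 23 markers below the WT mean and each WT mouse 2 to 18, so the ranges met, at mouse 55 and WT exercise mouse 201. The lowest and the highest of the 6 were mice 16 and 55, whose libraries stood apart. Without both, the median log2FC of the list was −0.41, and 13 markers fell (0.649% of all genes did). Those were Rgs8, Dner, Itpka, Car8, Calb1, Inpp5a, Homer3, Pcp2, Stac, Aldoc, Pcp4, Arhgef33 and Gng13. DESeq2 on all 12 mice called 12 lower, where it called 0.801% of all genes lower. In the 8 mice with chromosome Y expression, edgeR called 7 genes higher (0.0325%) and 32 lower (0.148%), 5 of them Purkinje cell markers.

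The mGluR1 and calcium release pathway runs from the receptor through Gq proteins and phospholipase C to the IP3 receptor and the calcium pumps. Of its 23 genes tested, 21 were lower, where 47.7% of all genes were. An unadjusted p under 0.05 was found for 14 of these (4.37% of all genes), but none passed the adjusted threshold. The median was −0.24. Gng13 stood at the low end and Gna11, a Gq family alpha subunit, at the high end with 0.09. The list shares Gng13, Rgs8, Car8, Inpp5a, Homer3, Plcb4 and Itpr1, among others, with the Purkinje cell markers. Without mice 16 and 55, 7 of the 23 passed, all lower (0.649% of all genes), among them Plcb3, a phospholipase C, and Dgkz, a diacylglycerol kinase.

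Besides Slc8a3, the higher genes Lrp1b, Sdk1, Nrg3, Kcnb2 and Csmd3 encode proteins of the cell surface or the synapse. The share of such genes among all genes tested was not counted, so this grouping is only a description. Lrp1b (chr2:40485258-42543636), a very large receptor of the LDL receptor family, had 142, 151 and 159 CPM in WT and 179.5, 264 and 299 CPM in SCA1 mice. The groups did not overlap, but exercise mouse 55 was far below the other SCA1 mice, which had at least 251 CPM. The log2FC was 0.77 ± 0.11 (adjusted p = 0.0213, edgeR) and 0.90 without mice 16 and 55. Both other genes tested inside Lrp1b on its strand were also above WT, at 0.70 and 0.71, with an unadjusted p under 0.05.

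Sdk1 (chr5:141227245-142201341), a homophilic adhesion molecule that matches synaptic partners, had 5.62, 8.09 and 9.17 CPM in WT and 13.3, 16.5 and 19.99 CPM in SCA1 mice. The SCA1 sedentary mice had 19.99, 18.8 and 18.7 CPM and the SCA1 exercise mice 14.3, 13.7 and 13.3 CPM, all above the WT mice. The log2FC was 1.08 ± 0.15 (adjusted p = 0.0216, edgeR). Of 25 organizers of the input synapses of Purkinje cells, Sdk1 alone passed (0.0442% of all genes rose). At an unadjusted p, 5 were higher and 5 lower (5.71% and 4.37% of all genes). Cbln1, the granule cell protein that organizes the synapses of parallel fibres, had the lowest value, at −0.45. Cbln2, its relative, had the highest, at 2.26, did not pass and turned to −0.83 without mice 16 and 55.

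Nrg3 (chr14:38087063-39196036), a neuregulin that activates the ErbB4 receptor, had 30.9, 32.6 and 36.8 CPM in WT and 39.8, 45.5 and 50.3 CPM in SCA1 mice, with no overlap and a log2FC of 0.46 ± 0.07 (adjusted p = 0.0374, edgeR). Among 12 neuregulins, Egf family ligands and ErbB receptors it was the only gene to pass (0.0442% of all genes rose). Nrg4 stood at the other end, at −0.76. Egf overlapped between genotypes, at 4.61 to 6.75 CPM in WT and 3.07 to 6.35 CPM in SCA1 mice (log2FC −0.24, adjusted p = 0.645, edgeR, and −0.05 without mice 16 and 55).

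Kcnb2 (chr1:15356816-15793974), the Kv2.2 subunit of delayed rectifier potassium channels, had 17.4, 19.98 and 21.9 CPM in WT and 23.5, 38.2 and 51.2 CPM in SCA1 mice. Mouse 55 was again the SCA1 mouse closest to WT. The log2FC was 0.94 ± 0.16 (adjusted p = 0.0399, edgeR). It was the only one of 39 potassium channel subunits to pass (0.0442% of all genes rose), and 6 were higher and 9 lower at an unadjusted p (5.71% and 4.37% of all genes). Kcnma1, the BK channel, had 381 to 466 CPM in WT and 296 to 428 CPM in SCA1 mice, with overlap and a log2FC of −0.31 ± 0.08 (adjusted p = 0.204, edgeR). Mouse 55 was the highest SCA1 mouse, and without mice 16 and 55 the log2FC was −0.33 (adjusted p = 0.0812, edgeR). Kcnma1 passed in 2 of the 26 alternatives, 1 of them DESeq2 (adjusted p = 0.0398). The study reports lower Kcnma1 expression in SCA1 mice by qPCR. None of 29 sodium, calcium and HCN channel subunits and none of 43 glutamate, GABA and glycine receptor subunits passed.

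Csmd3, a large membrane protein with CUB and sushi domains, had 59.3, 65.7 and 81.0 CPM in WT and 78.1, 109.7 and 123 CPM in SCA1 mice, with a log2FC of 0.64 ± 0.11 (adjusted p = 0.0399, edgeR). The overlap came from mouse 55, the lowest SCA1 mouse. Minar1 rose by a log2FC of 0.89 and Fam163b by 1.20. Fam163b overlapped because 1 WT mouse, 192, had 17.5 CPM while the other 5 had at most 8.32. Asl, argininosuccinate lyase of the urea cycle and arginine synthesis, had 10.9, 12.5 and 13.1 CPM in WT and 14.8, 19.1 and 22.4 CPM in SCA1 mice (log2FC 0.59 ± 0.10, adjusted p = 0.0374, edgeR).

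**Figure D3:**
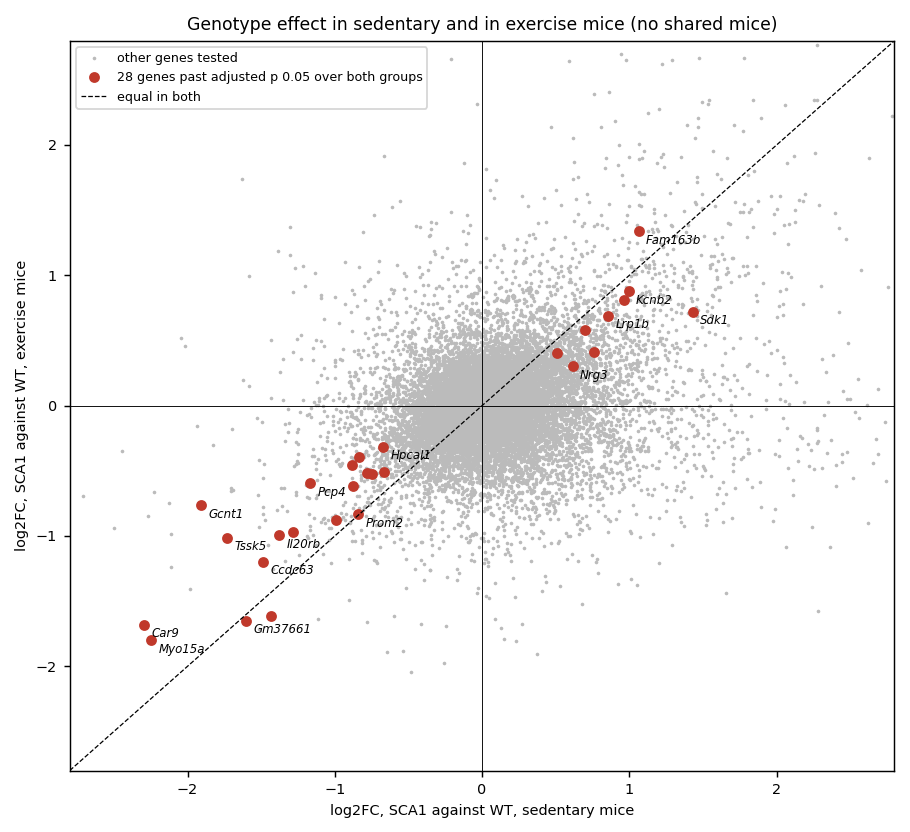
log2FC of SCA1 against WT in sedentary mice (horizontal) and in exercise mice (vertical) for the genes tested in grey and the 28 genes past the threshold over both groups in red, with some of them named. The dashed line marks equal values, and 92 genes beyond 2.8 on either axis are not drawn. The red points lie in the lower left and upper right. Of the 28 genes, 25 are nearer 0 in exercise mice, as are 11581 of all 20341 genes tested.

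Several of the lower genes are better known outside neurons. Car9, a membrane carbonic anhydrase known as a target of hypoxia signalling, had 6.58, 7.13 and 9.11 CPM in WT and 0.722, 1.64 and 4.29 CPM in SCA1 mice. Myo15a, the unconventional myosin of hair cell stereocilia, had 7.27, 10.7 and 16.0 CPM in WT and 1.37, 2.03 and 5.44 CPM in SCA1 mice. These were the largest falls of the 28, with log2FC of −1.98 ± 0.32 and −2.02 ± 0.33 (adjusted p = 0.0374 for both, edgeR), and neither overlapped. Drg2, which overlaps Myo15a on the same strand, had a log2FC of −0.05.

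Mybpc3, the myosin-binding protein C of heart muscle, fell from a median of 43.4 CPM in WT (41.2 to 50.6) to 19.7 CPM in SCA1 mice (13.3 to 29.4). Its log2FC was −1.12 ± 0.15 (adjusted p = 0.0213, edgeR), and it passed in 19 of the 26 alternatives. Prom2, a prominin of membrane protrusions, fell from 8.15 CPM (7.64 to 9.02) to 4.54 CPM (4.17 to 5.36), a log2FC of −0.84 ± 0.11 (adjusted p = 0.0213, edgeR). In both genes the SCA1 and WT ranges were apart. Tssk5, a kinase of the testis-specific serine kinase family, fell by 1.36 on the log2 scale. Ccdc63, a coiled-coil protein known from sperm flagella, fell by 1.34.

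Cep76 (chr18:67750033-67774615), a centrosomal protein that binds CP110 and limits centriole duplication, had 106, 114 and 128 CPM in WT and 59.96, 73.2 and 96.5 CPM in SCA1 mice (log2FC −0.61 ± 0.10, adjusted p = 0.0366, edgeR). Cep72, a protein of the centriolar satellites, had 14.0, 14.9 and 16.2 CPM in WT and 8.52, 10.01 and 12.2 CPM in SCA1 mice (log2FC −0.59 ± 0.09, adjusted p = 0.0297, edgeR). Both were apart between genotypes. Of 10 genes of the CP110 centriole complex, Cep76 alone passed (0.0934% of all genes fell). The list was chosen with earlier results of these data known, so this call is no result about the complex.

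Gcnt1 (chr19:17303505-17350208), which builds the core 2 branch of O-glycans, had 7.80, 8.44 and 10.6 CPM in WT mice. The SCA1 sedentary mice had 2.12, 2.17 and 2.31 CPM and the SCA1 exercise mice 7.30, 4.67 and 4.07 CPM, with mouse 55 the highest. The log2FC over both groups was −1.32 ± 0.22 (adjusted p = 0.0399, edgeR), and no other of 10 core O-glycan enzymes passed (0.0934% of all genes fell). Slc25a29, a mitochondrial carrier of basic amino acids, fell by 0.64 on the log2 scale.

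Signalling genes among those that fell were Il20rb, a receptor subunit for interleukins of the IL-20 family, and Nab2, a corepressor of the Egr transcription factors. Il20rb had 50.5, 54.7 and 73.1 CPM in WT and 11.8, 27.5 and 32.0 CPM in SCA1 mice (log2FC −1.19 ± 0.19), and Nab2 had 47.7, 54.3 and 69.5 CPM in WT and 27.0, 30.6 and 45.1 CPM in SCA1 mice (log2FC −0.75 ± 0.12), both with an adjusted p of 0.0374 in edgeR. Neither overlapped between genotypes.

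Igfbp5, Fam107b, Gm37661 and Gm43684 also fell, and are named here after their values were seen, to complete the 28. Igfbp5, a secreted binding protein of insulin-like growth factors, had 177, 206 and 217 CPM in WT and 72.4, 95.1 and 178 CPM in SCA1 mice, with mouse 55 alone inside the WT range. Its log2FC was −0.93, and −1.19 without mice 16 and 55. Fam107b fell by 0.67. Gm37661 lies inside Clstn2 on its strand, and fell by 1.63 while Clstn2 had a log2FC of −0.75 and did not pass. Gm43684 lies opposite to Camkk2, and fell by 1.52 while Camkk2 had −0.43 and did not pass.

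**Figure D4:**
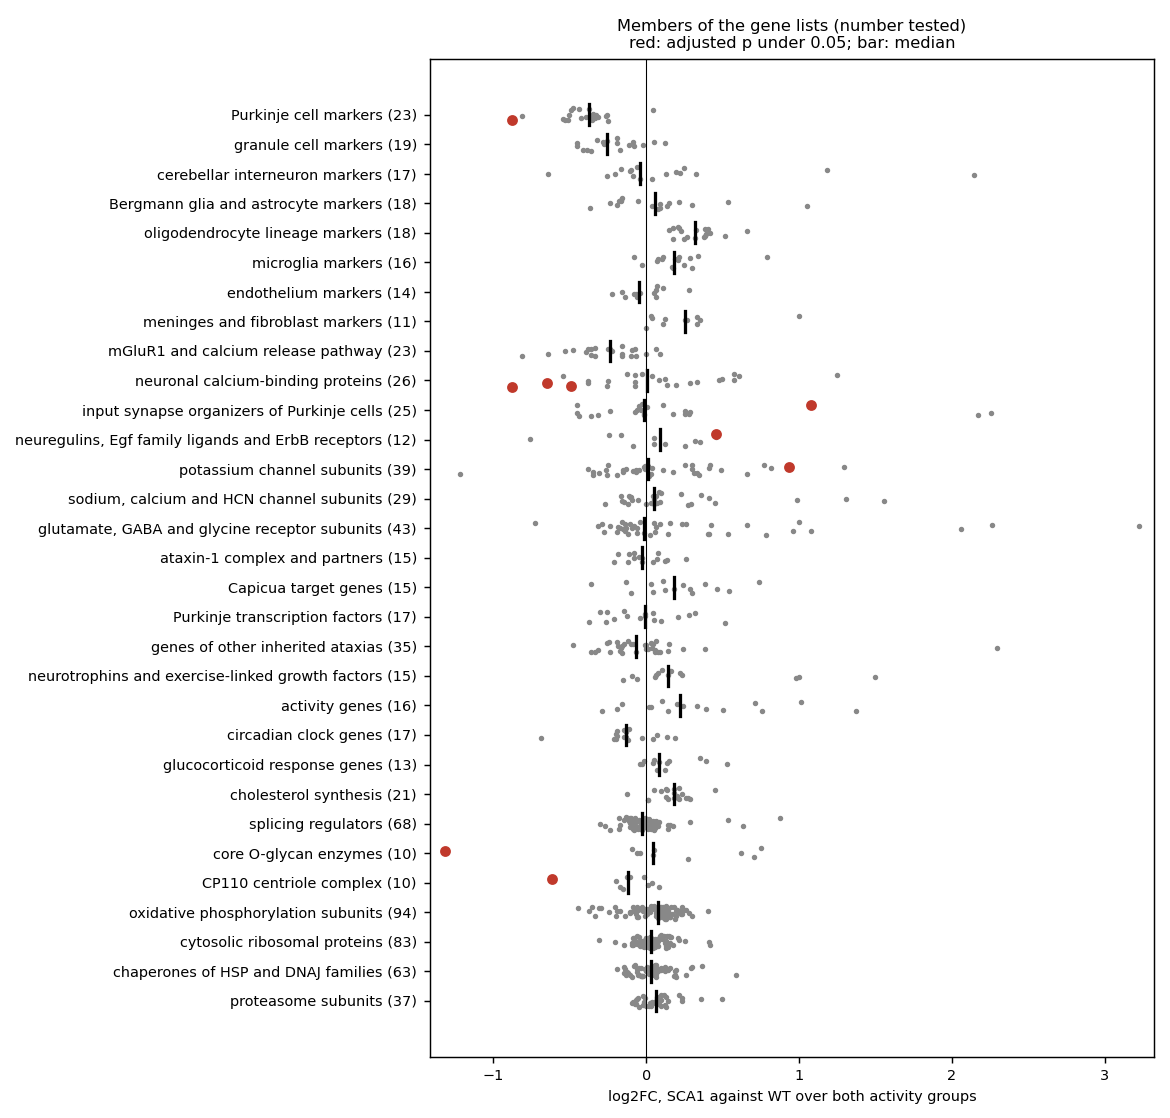
log2FC of SCA1 against WT over both activity groups (horizontal) for the members of each gene list (rows, number tested in brackets). Grey points are genes that did not pass, red points are genes past an adjusted p of 0.05 and black bars are medians. Purkinje cell markers centre on −0.37, and 8 of the 28 genes belong to a list. Brainstem, midbrain and forebrain, choroid plexus, erythrocyte and sex markers are not drawn.

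Other lists held no gene past the threshold in the edgeR fit of 12 mice. The ataxin-1 complex and partners had 15 genes tested with a median of −0.03, and Rora, the nuclear receptor needed by Purkinje cells, was the lowest at −0.21. Of 15 Capicua target genes, 12 were higher, where 52.3% of all genes were, with a median of 0.18, or 0.11 without mice 16 and 55, and 2 of the 12 had an unadjusted p under 0.05 (5.71% of all genes). Of 35 genes of other inherited ataxias, 7 were lower and 2 higher at an unadjusted p (4.37% and 5.71%). Car8, which moderates the IP3 receptor, had the lowest value, at −0.48, and passed with DESeq2 and without mice 16 and 55. Among 15 neurotrophins and exercise-linked growth factors, Bdnf had 13.5 to 19.4 CPM in WT and 11.1 to 17.2 CPM in SCA1 mice (log2FC −0.15, adjusted p = 0.671, edgeR).

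Levels of markers of some other cell types depended on whether mice 16 and 55 were included. The part of these cell types in the genotype differences was not tested. All 18 oligodendrocyte lineage markers were higher in SCA1 mice, where 52.3% of all genes were. Their median log2FC was 0.32, and none had an unadjusted p under 0.05. Without both mice the median was −0.09. Of 19 granule cell markers, 17 were lower (47.7% of all genes were), 5 of them at an unadjusted p (4.37% of all genes). Their median was −0.25, and −0.08 without both mice. For the Purkinje cell markers the corresponding values were −0.37 and −0.41. Cerebellar interneuron markers had −0.04 and −0.06, and erythrocyte markers 0.74 and 0.74, so these hardly moved. Choroid plexus markers had 0.90 and 0.65, and meninges and fibroblast markers 0.25 and −0.0016. Bergmann glia and astrocyte markers had 0.06 and −0.13, microglia markers 0.18 and −0.10, endothelium markers −0.05 and 0.07, and midbrain and forebrain markers 0.04 and −0.27. Of 18 brainstem markers, 7 passed the filter on low counts, and their median was 4.57 with and 1.56 without both mice. Choroid plexus markers ranged from 22.9 to 2046 CPM in WT and from 31.6 to 1727 CPM in SCA1 mice and were not separated by genotype.

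The genotype effect was then read within each activity group, in mice that the other group does not share. In sedentary mice 7 genes passed (0.0344%), 6 of them among the 28, and 2055 had an unadjusted p under 0.05 (10.1%). In exercise mice none passed, and 596 had an unadjusted p under 0.05 (2.93%), by the same edgeR test. All 28 genes had the same direction and an unadjusted p under 0.05 in both groups, which the choice of genes over the 12 mice favours. That held for 1.04% of all genes. The median absolute log2FC of the 28 was 0.98 in sedentary and 0.74 in exercise mice, and 0.18 and 0.15 over all genes. The interaction of genotype and exercise passed for no gene of the 20341 with edgeR, at 769 unadjusted (3.78%), and DESeq2 called 2. The unadjusted number was 3309 without mouse 16, 1073 without mouse 55 and 3028 without both, again with none past the adjusted threshold in edgeR. Of the 28, Sdk1, Gcnt1, Pcp4, Nrg3, Cep76 and Hpcal1 had an unadjusted p under 0.05 for the interaction, from 0.00289 for Gcnt1 to 0.0296 for Nrg3.

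Among the 2055 genes with an unadjusted p under 0.05 in sedentary mice, 70.7% had the same direction in exercise mice and 10.3% also an unadjusted p under 0.05 there. Over all genes these shares were 59.5% and 2.13%. Across the 20341 genes, which are not independent, the log2FC of the 2 activity groups had a Pearson r of 0.41. Each activity group held 1 of the 2 libraries that stood apart. Without mice 16 and 55, r was −0.08, 45.4% of all genes and 44.1% of 4145 genes had the same direction, and 8.88% against 3.86% also passed the unadjusted p in exercise mice. The 28 genes all had the same direction and an unadjusted p under 0.05 in exercise mice here too. They were chosen over all 12 mice, which include those kept, so this follows largely from the choice and adds no support. With 2 SCA1 mice left in each activity group, 255 genes passed in sedentary and 37 in exercise mice.

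The starts of the called genes were read for 2 motifs. Ataxin-1 works in a complex with Capicua, and Rora is on the list of its complex and partners. The motifs were the Capicua octamer, as TGAATGAA, TCAATGAA, TGAATGGA or TCAATGGA, and the half-site AGGTCA of nuclear receptors such as Rora, on both strands of the 250 bases before the start of the GENCODE canonical transcript. The octamer was found in 1 of 17 lower genes, Cep72, in 0 of 9 higher genes and in 2.47% of 14642 protein-coding genes tested. The half-site was found in 1 of the lower genes, Pcp4, 1 of the higher genes, Lrp1b, and 11.3% of the protein-coding genes. These counts are a description and single out no motif. The stretches of Pcp4 (chr16:96268556-96268805, plus strand), which passed in the most alternatives, and of Cep72 (chr13:74210456-74210705, minus strand) follow, read from GRCm39 5′ to 3′ on the gene's strand, with the match in capitals.
Pcp4: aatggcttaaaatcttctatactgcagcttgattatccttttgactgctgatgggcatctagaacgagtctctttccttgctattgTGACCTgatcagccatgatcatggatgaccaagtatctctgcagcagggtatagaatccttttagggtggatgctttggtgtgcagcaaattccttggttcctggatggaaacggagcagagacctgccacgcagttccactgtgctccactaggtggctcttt
Cep72: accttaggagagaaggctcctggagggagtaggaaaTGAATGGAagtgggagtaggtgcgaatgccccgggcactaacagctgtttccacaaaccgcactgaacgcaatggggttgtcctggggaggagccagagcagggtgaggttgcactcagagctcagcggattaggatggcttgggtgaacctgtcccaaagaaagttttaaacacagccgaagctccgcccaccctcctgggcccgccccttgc
In Pcp4 the match lies on the other strand, as TGACCT, and in Cep72 on the strand of the gene.

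**Figure D5:**
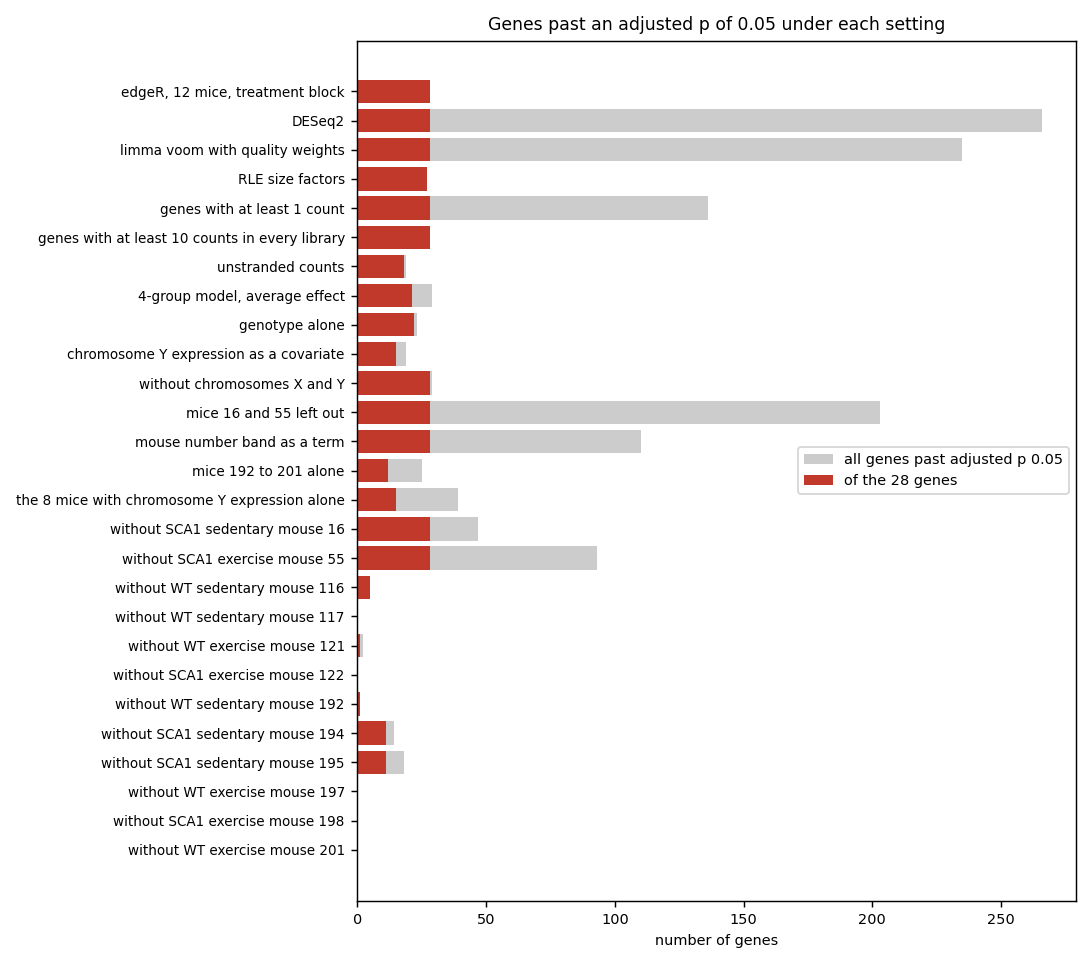
Number of genes past an adjusted p of 0.05 (horizontal) in the edgeR fit of 12 mice and under each of the 26 alternatives (rows), with all genes in grey and those among the 28 in red. The fits with 203, 235 and 266 genes include all 28, and 5 fits that leave out 1 mouse have none.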

How the data were processed

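Cerebellar RNA of 12 mice was depleted of ribosomal RNA and sequenced as directional read pairs. The authors checked reads with FastQC 0.11.9, trimmed those rich in adapter with fastp 0.24.0 and aligned them to GRCm39 with STAR 2.7.10a, per the submitters' processing notes, and deposited the raw read pair counts that STAR gave for each gene, without strand and by strand and not normalized. The methods state that 2 samples of lower RNA integrity were fragmented differently. Which mice those were is not given in the sources used here. The reverse-strand counts were used after the 4 summary rows were dropped. Of 56941 genes, 56323 matched GENCODE M39.

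In R 4.3.3, genes passing filterByExpr, scaled by TMM, entered a quasi-likelihood model of treatment and genotype in edgeR 4.0.16, with Benjamini-Hochberg adjustment. The interaction and the effects within each activity group came from 1 model of the 4 groups. CPM used TMM library sizes. The study's methods use DESeq2, which was run here as an alternative (1.42.0), as was limma 3.58.1. Recovery was tested on simulated data. Genes named were Atxn1, Cic, Calb1, Kcnma1, Bdnf and Egf, up to 15 higher and 15 lower calls of lowest p, called members of the lists, and the members with the extreme values. The members and lists, written from general knowledge, were chosen with earlier results of these data known. Reads in a gene and one overlapping it on the same strand can be split uncertainly. Splicing was not analysed here, and single values of some list members are not reported here.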

Additional observations from a re-analysis of the deposited data

Results flagged for a closer look

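Within the 6 mice of a genotype, the lowest or highest value lay far from the rest (Dixon's test at the 95% level) in 8 of 68 groups of named genes, where chance gives about 1 in 20. In SCA1 mice these were Lrp1b, lowest in exercise mouse 55 at 179.5 CPM, Il20rb, lowest in sedentary mouse 16 at 11.8 CPM, Minar1, highest in mouse 16 at 66.8 CPM, Slc25a29, highest in mouse 55 at 20.7 CPM, and Fam163b, highest in mouse 16 at 28.6 CPM. Cic was highest in SCA1 sedentary mouse 194 at 407 CPM. In WT mice, Slc25a29 was highest in sedentary mouse 116 at 29.2 CPM and Fam163b in sedentary mouse 192 at 17.5 CPM. Of the 8, 3 lay in mouse 16 and 2 in mouse 55, whose libraries also had the highest multimapping and brainstem marker levels. The part of these in the values was not tested.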

How the results depend on the processing

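No paired analysis was possible because each mouse has its own number, which occurs in no other group. The 28 calls and 25 DEGs became 266 and 172 with DESeq2, 235 and 133 with limma voom and quality weights, 136 and 118 with all genes of at least 1 count, 203 and 115 without mice 16 and 55, and 110 and 75 with bands of mouse numbers as a term. The 8 mice with chromosome Y expression alone, a setting chosen after seeing the data, gave 39 calls and 39 DEGs. With 1 mouse left out, calls ranged from 0 to 93, DEGs from 0 to 77 and genes past the interaction test from 0 to 1, and DESeq2 called 2 for the interaction. Other settings gave 19 to 29 calls, which were not always the same genes. With chromosome Y expression as a covariate, 15 of the 28 were among the 19 calls. With unstranded counts 18 of the 28 were called, and without chromosomes X and Y all 28. Lower genes were 67.9% of the calls, 78.7% with voom, 52.6% with unstranded counts, 79.3% with the average effect of a 4-group model and 82.1% in the 8 mice. The log2FC of Cic ranged from −0.016 without SCA1 sedentary mouse 194, the 1 reversal, to 0.10 without SCA1 sedentary mouse 16 among the fits that left out 1 mouse. Causes were not tested. Low counts limit Gm43684, with 10 to 74 read pairs per library, most.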

Other observations

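In lists of general cell functions, the median log2FC was 0.08 for 94 oxidative phosphorylation subunits, 0.03 for 83 cytosolic ribosomal proteins, 0.03 for 63 chaperones and 0.07 for 37 proteasome subunits, and no member passed the adjusted threshold of edgeR. Without mice 16 and 55 these medians were −0.05, −0.10, −0.02 and −0.05. In sedentary and exercise mice apart, the medians were −0.17 and 0.25 for the ribosomal proteins and −0.09 and 0.26 for the oxidative phosphorylation subunits. None of 68 splicing regulators passed, with a median of −0.03, or 0.05 without both mice, and Rbfox1, a neuronal splicing factor, had the lowest value at −0.30 while Celf6 had the highest at 0.87, and 0.26 without both mice. Of 21 cholesterol synthesis genes, 20 were higher (52.3% of all genes were), with a median of 0.18 that became −0.11 without mice 16 and 55. Of 17 circadian clock genes, 13 were lower (47.7% of all genes were), with a median of −0.13, or −0.05 without both mice. Of 16 activity genes, 13 were higher (52.3% of all genes were), with a median of 0.22, or 0.03 without both mice, and none passed. Their medians were 0.57 in sedentary and −0.10 in exercise mice, so the activity groups did not share a direction.

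The 10 most abundant genes of each library took 4.65% to 6.20% of the counts in SCA1 mice and 6.26% to 6.69% in WT mice, which did not overlap.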
